A study of Mus musculus with 38 samples.

Results

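The day 1 RNA of mouse fibroblasts that carried SALL4-delN12 was compared with that of fibroblasts that carried SALL4-WT, gene by gene, with interferon-stimulated genes and short RNAs left out. The comparison held 8182 of the 35976 gene symbols in the table, namely those with at least 5 FPKM (fragments mapped to a gene, scaled by transcript length and library size) in either library. Of these, 7882 were protein-coding. Both groups were mouse embryonic fibroblasts (MEFs) of the cross between OG2 males and 129S4/SvJaeJ females. They were made at E13.5, without a choice of sex, from the body less its head, tail, limbs and organs. The cells were infected with a pMXs retrovirus that carried a single factor, either SALL4-WT or SALL4-delN12, which lacks the N-terminal 12 residues that bind the NuRD complex, and were kept in iCD3 medium without BMP4. That medium contains TV, vitamin C, mLIF, bFGF, the GSK3 inhibitor CHIR-99021, the DOT1L inhibitor SGC0946, an LSD1 inhibitor and the ROCK inhibitor Y27632. The study sequenced 1 RNA library for each form at days 1, 5, 9 and 11, so no difference here has a replicate check and no p-value is given. Gene positions are those of GRCm38.p6.

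SALL4 is a zinc finger protein of early embryonic and germ cells that binds AT-rich DNA. Its N-terminal peptide recruits NuRD, a complex that removes acetyl groups from histones and remodels nucleosomes, and SALL4 is best known as a repressor through that contact. MEFs are mesenchymal cells with a matrix and cytokine program and a HOX code of the body region they came from. The comparison asks which of their genes differ at the first time point when the NuRD contact is missing.

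*Sall4* itself was at 549 FPKM in the SALL4-WT library and at 809 FPKM in the SALL4-delN12 library, a difference of 0.56 on the log2(FPKM + 1) scale that is used for all differences below (SALL4-delN12 minus SALL4-WT). Whether reads of the virus are counted in this value is not given in the sources used here, and reads of the virus and of the endogenous gene could not be separated. The libraries differ in *Sall4* level as well as in form, and the part of that level in the differences below was not tested. Of 13 NuRD subunits measured, none was past 1 in either direction, and their median was −0.15, from −0.40 for *Hdac1* (37.3 and 28.0 FPKM) to 0.49 for *Chd3* (11.9 and 17.1 FPKM).

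Most genes differed little. Their median difference was −0.02, and 77.4% lay within 0.5 of 0. A gene was called higher or lower where its difference was at least 1 in size. By this rule 320 genes (3.91% of those tested) were higher in SALL4-delN12 and 358 (4.38%) were lower, and 31 and 15 of them, respectively, were past 3. The 106 interferon-stimulated genes that reached the same level, and that are left out here, had a median of −1.67, so the libraries also differ in that respect. The numbers of genes at 5 FPKM or more were close, at 7723 with SALL4-WT and 7655 with SALL4-delN12.

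**Figure D1:**
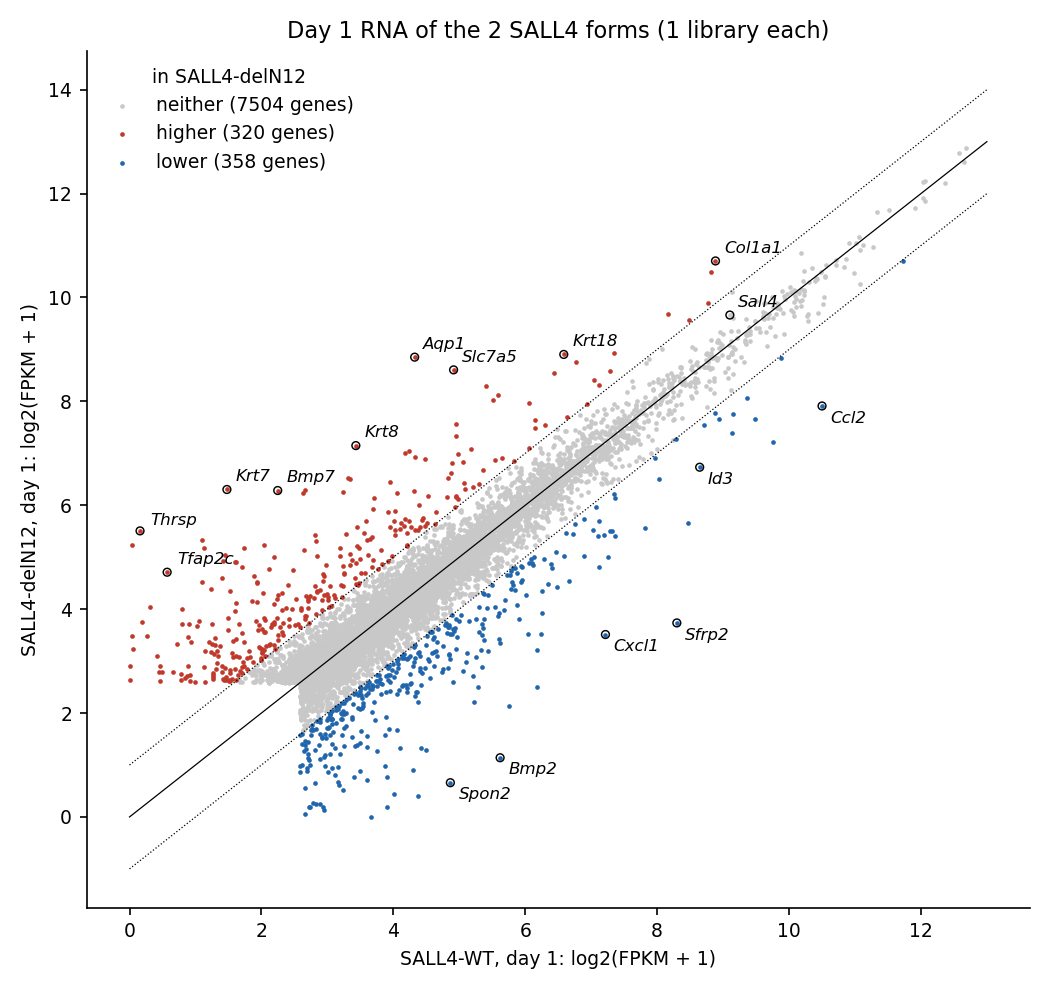
Each point is a gene of the comparison. The axes give log2(FPKM + 1) in the SALL4-WT library (horizontal) and the SALL4-delN12 library (vertical) of day 1, the solid line marks equal values and the dotted lines a difference of 1. The 320 higher genes are red, the 358 lower genes blue, and *Krt7*, *Aqp1*, *Sfrp2* and *Bmp2* lie far from the line while *Sall4* lies near it.

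The 15 genes with the largest excess in SALL4-delN12 included the keratins *Krt7*, *Krt8* and *Krt79*. *Krt7*, a keratin of simple and glandular epithelia (chr15:101412403-101427806), was at 1.78 FPKM with SALL4-WT and 78.0 FPKM with SALL4-delN12 (difference 4.83). *Krt8*, which pairs with *Krt18* in the filaments of simple epithelia, was at 9.79 and 141 FPKM (3.72). *Krt18* was at 95 and 478 FPKM (2.32), so this partner was abundant with either form and higher with SALL4-delN12. *Krt19* was at 6.04 and 41.9 FPKM (2.61). The tight junction genes *Cldn3* and *Cldn4* were at 29.9 and 161 FPKM (2.39) and at 44.6 and 260 FPKM (2.52). The claudin family as a whole did not share this, with 8 of 17 genes above 0 in either library (47.1%) at the higher FPKM in SALL4-delN12, against 47.3% of all genes, and *Cldn12*, the other claudin measured, at 6.43 and 4.84 FPKM (−0.35). *Krt8*, *Krt18*, *Krt19*, *Cldn3* and *Cldn4* are the 5 of 10 epithelial and keratinocyte markers that reached 5 FPKM, and did so with SALL4-WT too. These 5 were higher, against 3.91% of all genes. Their median was 2.52, and that of the list without the filter was 1.59. The defining markers of an epithelium were near 0 in both libraries: *Epcam* at 0.50 and 0.68 FPKM, *Cdh1* at 0.41 and 1.55 FPKM, *Krt5* listed at 0 and at 0.64 FPKM, and *Trp63* at 0.02 FPKM and listed at 0.

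The keratin family was then read as a whole, a choice made after its members had been seen. The table lists 49 keratin genes, of which 8 were at 0 in both libraries. Of the other 41, 39 (95.1%) had the higher FPKM in SALL4-delN12, against the same 47.3% of the 20560 genes above 0 in either library, and their summed level was 124.6 FPKM with SALL4-WT and 839 FPKM with SALL4-delN12. Only 11 reached 5 FPKM and 8 of these did so with SALL4-delN12 alone, so their count cannot be read as support. *Krt79* was at 0.25 and 15.4 FPKM, *Krt76* at 1.86 and 19.3 FPKM, and *Krt83* was listed at 0 with SALL4-WT and at 6.49 FPKM with SALL4-delN12. The 11 lie in the keratin clusters of the genome, 8 within chr15:101348315-102032026, the cluster of type II keratins with *Krt18* at its edge, and 3 within chr11:100131759-100269951 (GRCm38.p6).

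*Tfap2c* (chr2:172545678-172558622) encodes AP-2 gamma, a transcription factor of trophoblast, primordial germ cells and epidermis. It was at 0.48 FPKM with SALL4-WT and 25.2 FPKM with SALL4-delN12 (4.14). *Padi2*, an enzyme that turns arginine in proteins into citrulline, was at 1.19 and 35.3 FPKM (4.05). Its neighbors in the chr4:140745508-140952586 cluster were named after their values were seen. *Padi1* (0.87 and 12.2 FPKM, 2.81) and *Padi4* (3.57 and 12.5 FPKM, 1.56) were higher as well. *Padi3*, at 2.81 and 6.55 FPKM (0.99), was just short of the rule. Of the 5 genes of the family, 4 had the higher FPKM in SALL4-delN12, against 47.3% of all genes above 0 in either library, and 1 had the lower. The family was chosen after its values were seen, and no *Padi* gene reached 5 FPKM with SALL4-WT. Its counts therefore cannot be read as support.

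The other leading genes higher in SALL4-delN12 have varied roles. *Thrsp*, a regulator of fatty acid synthesis, had the largest difference, 5.35, with 0.12 FPKM in SALL4-WT and 44.5 FPKM in SALL4-delN12. *Aqp1* (chr6:55336299-55348555), a water channel, was at 19 and 461 FPKM (4.53), the most abundant of these genes. *Tnnt2*, troponin T of heart muscle, was at 1.13 and 39.4 FPKM (4.24), while *Myod1* was at 0.14 FPKM and listed at 0, and only 2 of 17 skeletal muscle markers reached 5 FPKM. *Ctsk*, a protease that degrades collagen, was at 5.20 and 74.2 FPKM (3.60), *Crispld2*, a secreted protein, at 5.34 and 77.0 FPKM (3.62), and *Col23a1*, a transmembrane collagen, at 1.68 and 29.3 FPKM (3.50). *Chrna4*, a subunit of the acetylcholine receptor, was at 0.03 and 10.3 FPKM, and the uncharacterized *1810041L15Rik* at 0.14 and 12.5 FPKM.

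The largest deficit in SALL4-delN12 was that of *Sfrp2* (chr3:83765750-83774314), a secreted regulator of WNT signaling, with 314 FPKM in SALL4-WT and 12.3 FPKM in SALL4-delN12 (−4.56). *Bmp2* (chr2:133552159-133562896), a BMP ligand, followed with 48.1 and 1.2 FPKM (−4.48), and *Spon2*, a matrix protein, with 28.1 and 0.58 FPKM (−4.21). *Ccl20* and *Cxcl1*, chemokines for lymphocytes and neutrophils, were at 13.9 and 0.14 FPKM (−3.71) and at 148 and 10.4 FPKM (−3.70). *Ereg*, a ligand of the EGF receptor, was at 20.4 and 1.52 FPKM (−3.09), and *Ppp1r14a*, an inhibitor of myosin phosphatase, at 53.1 and 3.40 FPKM (−3.62). *Slc6a14*, an amino acid transporter, was at 11.7 FPKM with SALL4-WT and listed at 0 with SALL4-delN12. *Pglyrp2* (−3.97), *Rnd1* (−3.40), *Nxph3* (−3.14) and *Wfdc21* (−2.89) were between 11.1 and 19.8 FPKM in SALL4-WT and under 1 FPKM in SALL4-delN12. Among the 15 largest deficits, *Neurl3* (−3.21), *Ch25h* (−3.01) and *Serping1* (−2.97) are also known to respond to interferon although the patterns that were left out do not hold them.

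Among the gene lists, that of inflammation held the most lower genes. Of 34 genes in the list, 27 were measured. Of these, 20 were lower (against 4.38% of all genes), 3 were higher (against 3.91%) and 4 were not past 1. Their median was −1.74, and −1.07 with a pseudocount of 5. Of the 27, 10 reached 5 FPKM with SALL4-WT only and 2 with SALL4-delN12 only, so this count and median are a description, and the count without a filter is given below. *Ccl2*, which attracts monocytes, was at 1448 FPKM with SALL4-WT and 239.8 FPKM with SALL4-delN12 (−2.59). *Saa3*, an acute phase protein, was at 353 and 49.4 FPKM (−2.81), *Cxcl2* at 74.2 and 10.5 FPKM (−2.71), and *Icam1*, an adhesion molecule for leukocytes, at 64.6 and 10.6 FPKM (−2.50). *Nfkbia* and *Tnfaip3*, targets and feedback inhibitors of NF-kB, were at 146 and 41.8 FPKM (−1.77) and at 9.53 and 0.69 FPKM (−2.64). The 3 higher genes were *Cxcl14* (1.64 and 23.1 FPKM, 3.19), *Lif* (3.77 and 18.3 FPKM, 2.02) and *Lcn2* (55.6 and 114 FPKM, 1.02). Over all 34 genes with no filter, 30 (88.2%) had the lower FPKM in SALL4-delN12, against 52.7% of all genes above 0 in either library.

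Macrophage markers were present in both libraries, and macrophages also make several of these chemokines. The 9 of 12 markers that were measured did not move together, and their median was 0.80, or 0.49 with a pseudocount of 5. They summed to 400 FPKM with SALL4-WT and 395 FPKM with SALL4-delN12, and *Lyz2* was the largest part of each sum. The floor of 5 FPKM was reached by 7 with SALL4-WT and by 9 with SALL4-delN12. *C1qa* (16.1 and 45.8 FPKM), *C1qb* (20.6 and 51.6 FPKM), *C1qc* (8.48 and 27.3 FPKM) and *Csf1r* (3.40 and 9.06 FPKM) were higher, *Cd14* (40.7 and 18.5 FPKM) and *Adgre1* (16.9 and 7.78 FPKM) were lower, and *Lyz2* was at 272 and 205 FPKM. *Ptprc*, the pan-leukocyte marker, was at 0.67 and 0.43 FPKM. The part of macrophages in the chemokine values was not tested, and in bulk RNA fewer cells of a type and less RNA per cell cannot be told apart.

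Among BMP genes, *Bmp2* was lower (above), and *Bmp7*, another ligand, was higher, with 3.75 and 76.9 FPKM (4.04). Both were named from the 15 largest differences of their direction, and no list of BMP ligands was counted. Of 9 BMP targets measured, 5 were lower (against 4.38% of all genes), 1 was higher (against 3.91%) and 3 were not past 1. Their median was −1.40. Without the filter, 8 of 12 (66.7%) had the lower FPKM in SALL4-delN12, against 52.7% of all genes, and the median was −0.78. The *Id* genes, which encode inhibitors of basic helix-loop-helix factors and are direct SMAD targets, were all lower: *Id1* at 570 and 215 FPKM (−1.40), *Id2* at 130 and 45.1 FPKM (−1.50), *Id3* at 399 and 105 FPKM (−1.91) and *Id4* at 8.48 and 1.56 FPKM (−1.89). The inhibitory SMAD gene *Smad6* was at 20.1 and 6.02 FPKM (−1.59), whereas *Smad7* was at 18.7 and 19.98 FPKM (0.09). *Bambi*, a decoy receptor, was the higher target (2.17 and 7.45 FPKM, 1.42). *Bambi* reached 5 FPKM with SALL4-delN12 only and *Id4* with SALL4-WT only, so the counts of higher and lower targets are a description.

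The GSK3 inhibitor of the medium, which activates WNT signaling, was present in both groups. Of 11 WNT targets and regulators measured, 10 had a positive difference, against 47.8% of all genes compared. Of the 11, 3 were higher (against 3.91% of all genes) and 1 was lower (against 4.38%), with a median of 0.60. The floor of 5 FPKM was reached by 10 with SALL4-WT and by 10 with SALL4-delN12. *Ccnd1*, cyclin D1, was at 285 and 824 FPKM (1.53), the feedback gene *Nkd1* at 12 and 69.7 FPKM (2.44) and the ligand *Wnt4* at 11.9 and 59.7 FPKM (2.23). *Axin2*, the usual readout of the pathway, was at 12.8 and 17.1 FPKM (0.40), and the secreted inhibitor *Dkk1* was at 5.90 and 0.20 FPKM (−2.52). The ligands *Wnt6* (3.70 and 17.3 FPKM, 1.96) and *Wnt7b* (1.51 and 6.83 FPKM, 1.64) were also higher and *Wnt11* was lower (11.2 and 1.95 FPKM, −2.04), named after their values were seen.

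**Figure D2:**
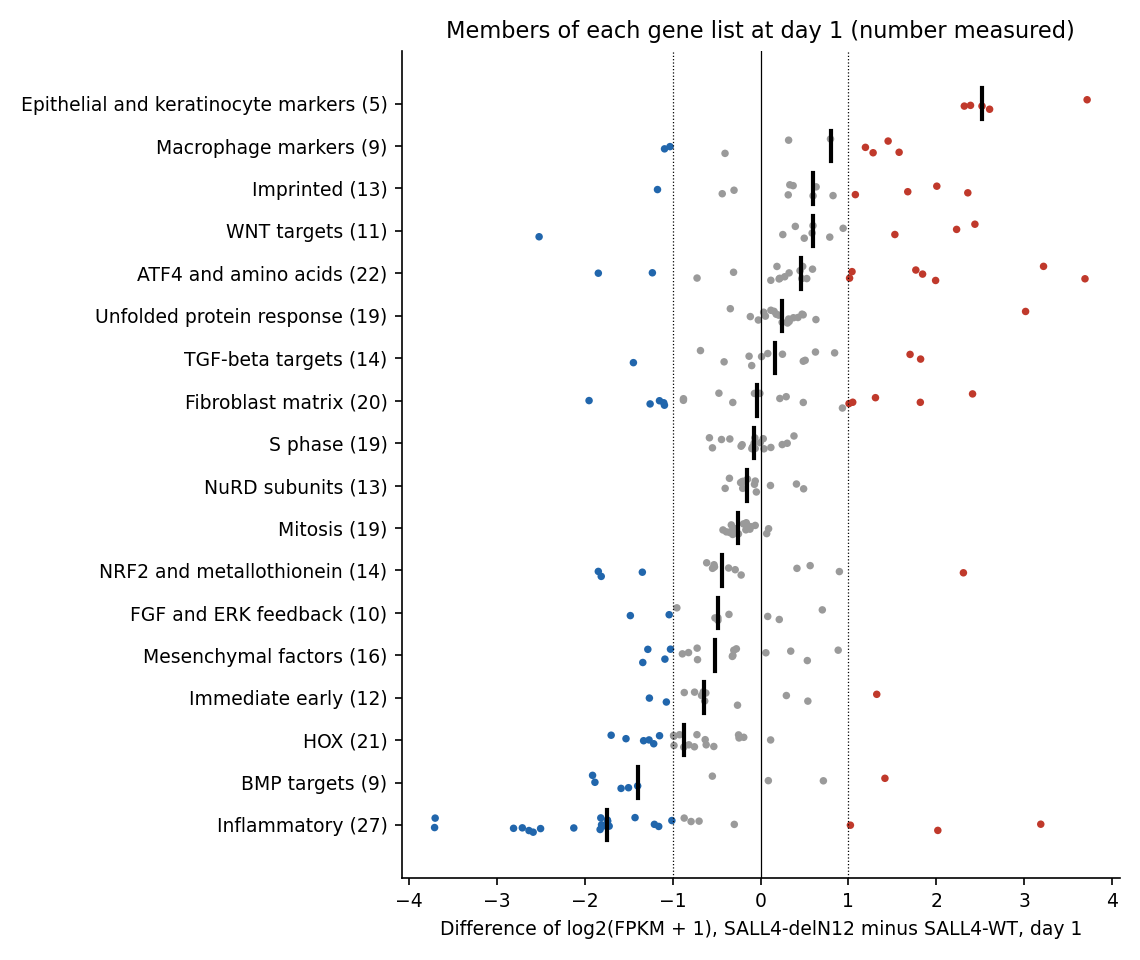
Each point is a gene of the list named at the left with at least 5 FPKM in either library, placed by its difference of log2(FPKM + 1) (horizontal, SALL4-delN12 minus SALL4-WT). Black bars are list medians, red and blue points are past 1, and vertical scatter within a row has no meaning. The median is 2.52 for the epithelial markers and −1.74 for the inflammatory genes, and lies between −0.25 and −0.07 for the mitosis, NuRD and S phase genes. Without a filter the epithelial median is 1.59, and with a pseudocount of 5 the inflammatory median is −1.07.

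Of 20 matrix genes measured, 5 were higher (against 3.91% of all genes) and 5 were lower (against 4.38%), with a median of −0.04. *Col1a1* was at 472 and 1666 FPKM (1.82), *Col6a3* at 21.2 and 117 FPKM (2.41) and *Col5a1* at 40.1 and 101 FPKM (1.31). *Fn1*, fibronectin, was at 467 and 218 FPKM (−1.09), *Thbs1* at 97.3 and 43.3 FPKM (−1.15), *Tnc* at 38.4 and 15.5 FPKM (−1.26) and *Postn* at 53.3 and 24.3 FPKM (−1.10). *Col1a2*, whose product assembles with that of *Col1a1*, was at 456 and 453 FPKM (−0.01). In the whole collagen family, read after its values were seen, 20 of 44 genes were measured, 10 were higher (against 3.91% of all genes) and 1 was lower (against 4.38%). Without the filter, 26 of 44 (59.1%) had the higher FPKM in SALL4-delN12, against 47.3% of all genes. *Col7a1*, the collagen of anchoring fibrils, was at 17.8 and 131 FPKM (2.82), *Col18a1* at 30.1 and 188 FPKM (2.61), and the lower gene, *Col8a2*, at 13.6 and 0.98 FPKM (−2.88), while the basement membrane collagen *Col4a1* was at 104 and 105 FPKM (0.01). All 10 fibroblast markers were measured, and 4 were higher (against 3.91% of all genes) and 2 lower (against 4.38%). Their median was 0.23, and −0.01 over markers with a mean of at least 10 FPKM. The higher were *Col1a1*, *Pdgfrb* at 9.12 and 27.7 FPKM (1.5), *Thy1* at 15.6 and 74.3 FPKM (2.18) and *S100a4* at 108 and 434 FPKM (2.00), and the lower were *Vim* at 937 and 458 FPKM (−1.03) and *Prrx1* at 28.1 and 10.5 FPKM (−1.34).

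Among 16 transcription factors of mesenchyme, 4 were lower (against 4.38% of all genes) and none was higher, with a median of −0.52 that was −0.31 without the filter. Of the 16, 3 reached 5 FPKM with SALL4-WT only, among them *Foxc1* and *Foxf2*, and 1 with SALL4-delN12 only, so the count is a description. The lower genes were *Prrx1*, *Foxc1* (7.12 and 2.33 FPKM, −1.28), *Foxf2* (7.93 and 3.20 FPKM, −1.09) and *Snai2*, a repressor of epithelial genes (12.5 and 5.63 FPKM, −1.03). The HOX genes, which set position along the body axis, had a median of −0.87 that was −0.57 with a pseudocount of 5. Of 21 measured, 20 had a negative difference, against 52.2% of all genes compared, and 6 were past −1, against 4.38%. However, 10 of the 21 reached 5 FPKM with SALL4-WT only, so these counts and the median cannot be read as support. The 6 were *Hoxc8* (27.7 and 7.82 FPKM, −1.70), *Hoxb4* (−1.53), *Hoxa9* (−1.33), *Hoxb8* (−1.27), *Hoxb5* (−1.22) and *Hoxc10* (−1.15). With no filter, 34 of the 37 HOX genes above 0 in either library had the lower FPKM in SALL4-delN12 (91.9%), against 52.7% of all genes.

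In the ATF4 list, which holds amino acid uptake and synthesis genes of the integrated stress response, 7 of 22 were higher (against 3.91% of all genes) and 2 were lower (against 4.38%), with a median of 0.46. Of the 22, 2 reached 5 FPKM with SALL4-delN12 only (*Fgf21* and *Stc2*) and 2 with SALL4-WT only. *Slc7a5*, a transporter of large neutral amino acids, was at 29.1 and 389 FPKM (3.69), and its partner subunit *Slc3a2* at 32.4 and 113 FPKM (1.77). *Chac1* was at 8.15 and 35.4 FPKM (1.99), the hormone gene *Fgf21* at 0.20 and 10.2 FPKM (3.22) and *Asns* at 14.8 and 31.5 FPKM (1.04). *Slc7a11*, the cystine transporter that ATF4 and NRF2 both act on, was at 10.4 and 2.17 FPKM (−1.85). The NRF2 targets *Hmox1*, heme oxygenase (713 and 202 FPKM, −1.81), and *Gclm* (55 and 21 FPKM, −1.35) were lower as well, and *Osgin1* was higher (2.61 and 16.9 FPKM, 2.31). Of 14 NRF2 and metallothionein genes measured, 3 were lower (against 4.38% of all genes) and 1 was higher (against 3.91%). The other 10 were not past 1, and the median of the 14 was −0.44. The 3 lower genes include *Slc7a11*, which the ATF4 list counts too, and *Osgin1* reached 5 FPKM with SALL4-delN12 only. In the unfolded protein response, 16 of 19 genes had a positive difference, against 47.8% of all genes compared, but only *Herpud1* was past 1 (8.46 and 75.6 FPKM, 3.02), and the chaperone *Hspa5* was at 206 and 255 FPKM (0.31).

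None of 19 S phase genes and none of 19 mitosis genes was past 1, although 17 of the latter were below 0, against 52.2% of all genes compared (median −0.25), among them *Ccnb1* at 33.9 and 25.6 FPKM. *Cdkn1c*, an imprinted CDK inhibitor, was higher (30.5 and 126 FPKM, 2.01) and *Cdkn2b* was lower (83.7 and 26.7 FPKM, −1.61). *Cdkn1c* was 1 of 4 imprinted genes that were higher, of 13 measured (against 3.91% of all genes). The others were *H19* (450.1 and 1439.9 FPKM, 1.68), *Igf2* (358 and 758 FPKM, 1.08) and *Rian* (2.03 and 14.5 FPKM, 2.36). *Rian* reached 5 FPKM with SALL4-delN12 only. *Peg10*, which reached it with SALL4-WT only, was the 1 lower gene (5.76 and 2.00 FPKM, −1.17), against 4.38% of all genes. Of 10 FGF and ERK feedback genes measured, *Spry2* (−1.48) and *Spry1* (−1.04) were lower (against 4.38% of all genes) and none was higher (against 3.91%). All 10 reached 5 FPKM with SALL4-WT and 8 with SALL4-delN12. Of 10 LIF and STAT3 genes measured, *Socs3* was higher (30.1 and 70.7 FPKM, 1.21), against 3.91% of all genes. *Osmr* (14.4 and 4.36 FPKM, −1.53) and *Bcl3* (29.1 and 11.2 FPKM, −1.30) were lower, against 4.38%. Of these 10 also, all reached 5 FPKM with SALL4-WT and 8 with SALL4-delN12. Both cultures came from embryos taken regardless of sex, and *Xist* was at 6.75 and 5.63 FPKM and the Y-linked *Ddx3y* at 6.22 and 6.02 FPKM.

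Of 12 primitive endoderm (PrE) genes, 8 were below 5 FPKM in both libraries: *Gata4*, *Sox17*, *Pth1r*, *Lama1*, *Cited1*, *Eva1a*, *Chst15* and *Foxa2*. *Pitx1* was at 12.6 and 26.5 FPKM (1.01), *Klf4* at 12.1 and 3.64 FPKM (−1.50), *Dab2* at 11 and 6.32 FPKM (−0.72) and *Gata6* at 5.61 and 4.09 FPKM (−0.38). Of 20 pluripotency genes only *Klf5* was measured (9.74 and 5.46 FPKM, −0.73), and none of 24 germline and early embryo genes was.

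The libraries of days 5, 9 and 11 are separate samples that the day 1 difference does not use. In the same 8182 genes, 258 were higher (3.15%) and 323 lower (3.95%) at day 5, 331 (4.05%) and 371 (4.53%) at day 9, and 387 (4.73%) and 348 (4.25%) at day 11. Of the 320 genes higher at day 1, 89.7% had a positive difference at day 5, 84.1% at day 9 and 77.2% at day 11, and 161 (50.3%), 149 (46.6%) and 108 (33.8%) were again past 1. Of the 358 lower genes, 89.7%, 81.6% and 74.3% had a negative difference, and 167 (46.6%), 158 (44.1%) and 125 (34.9%) were again past −1. In the 7504 genes past neither limit at day 1, 48.1%, 52.9% and 55.1% had a positive difference. Across genes, which are not independent and at a given day share the same libraries, Pearson's r between the day 1 difference and the later one was 0.63, 0.53 and 0.36, and Spearman's rho was 0.48, 0.39 and 0.25. Thus the likeness to day 1 was closest at day 5 and least at day 11.

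**Figure D3:**
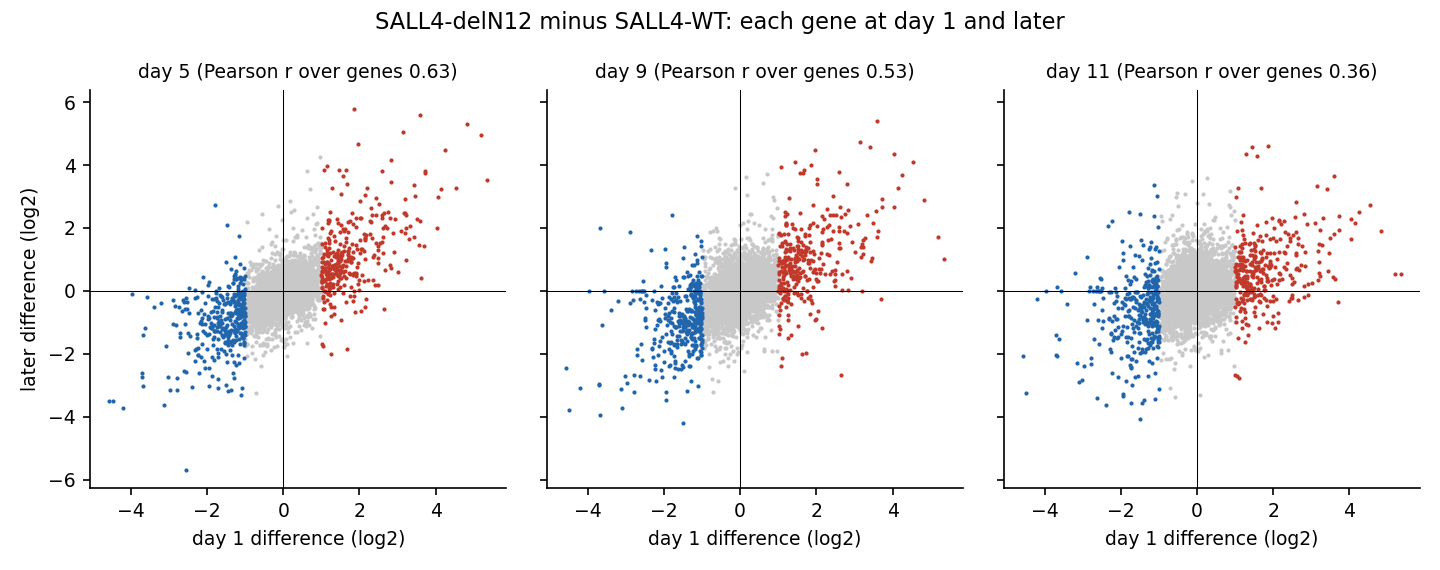
Each point is a gene, with its day 1 difference of log2(FPKM + 1) on the horizontal axis and its difference at day 5, 9 or 11 on the vertical axis (SALL4-delN12 minus SALL4-WT). Red and blue mark the genes past 1 at day 1. The clouds turn from a tilt with r of 0.63 at day 5 to one of 0.36 at day 11.

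Past the limit at all 4 days were 92 of the higher and 100 of the lower genes. The epithelial genes were among them. *Krt8* stood at 141, 166, 170.1 and 169 FPKM with SALL4-delN12 at days 1, 5, 9 and 11 and at 9.79, 11.3, 21.8 and 31.8 FPKM with SALL4-WT. *Krt7* peaked at day 5 with SALL4-delN12 (104 FPKM) and was at 32.4 FPKM at day 11, against 7.84 FPKM with SALL4-WT. *Tfap2c* was at 21.4, 30.4 and 13.9 FPKM with SALL4-delN12 at the later days and at no more than 2.36 FPKM with SALL4-WT, and *Aqp1* was at 401, 587 and 184 FPKM against 27 to 40.5 FPKM. *Bmp2* stayed between 45.4 and 73.4 FPKM with SALL4-WT and between 1.2 and 4.4 FPKM with SALL4-delN12. *Sfrp2* dropped within the SALL4-WT course, from 314 FPKM at day 1 to 60.1 FPKM at day 11, and was at 9.20 to 13.4 FPKM with SALL4-delN12. *Cxcl1*, *Ccl20*, *Prrx1*, *Hoxc8*, *Fn1* and *Hmox1* were lower, and *H19*, *Igf2* and *Cdkn1c* higher, at each of the 4 days.

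Other differences were smaller at later days, at different paces. *Slc7a5* was at 389 FPKM with SALL4-delN12 at day 1 and at 50.5, 19.8 and 13.4 FPKM afterwards, with differences of 1.44, −0.25 and −0.35. *Slc3a2* was at 40.3 FPKM at day 5 against 36.9 FPKM with SALL4-WT, and the median of the ATF4 list was −0.39 at day 5. *Thrsp* was at 44.5, 24.9, 2.79 and 1.79 FPKM in SALL4-delN12 over the 4 days, with differences of 5.35, 3.51, 1.03 and 0.52. *Pglyrp2*, at 19.8 FPKM in the SALL4-WT library of day 1, was at 0.07 FPKM or listed at 0 in every later library. *Nfkbia* differed by −0.01 at day 5, and the inflammatory median was −0.81 then, against −1.74 at day 1. The mitosis genes went the other way, with a median of −0.25 on day 1 and medians of 0.27, 0.75 and 1.11 at days 5, 9 and 11. The BMP targets had a median of −1.01 at day 5 and −1.07 at day 9, after −1.40 at day 1, and were at −0.02 at day 11. *Id3* differed by −1.14 and −1.07 at days 5 and 9 and was at 537 and 399 FPKM at day 11 (−0.43).

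**Figure D4:**
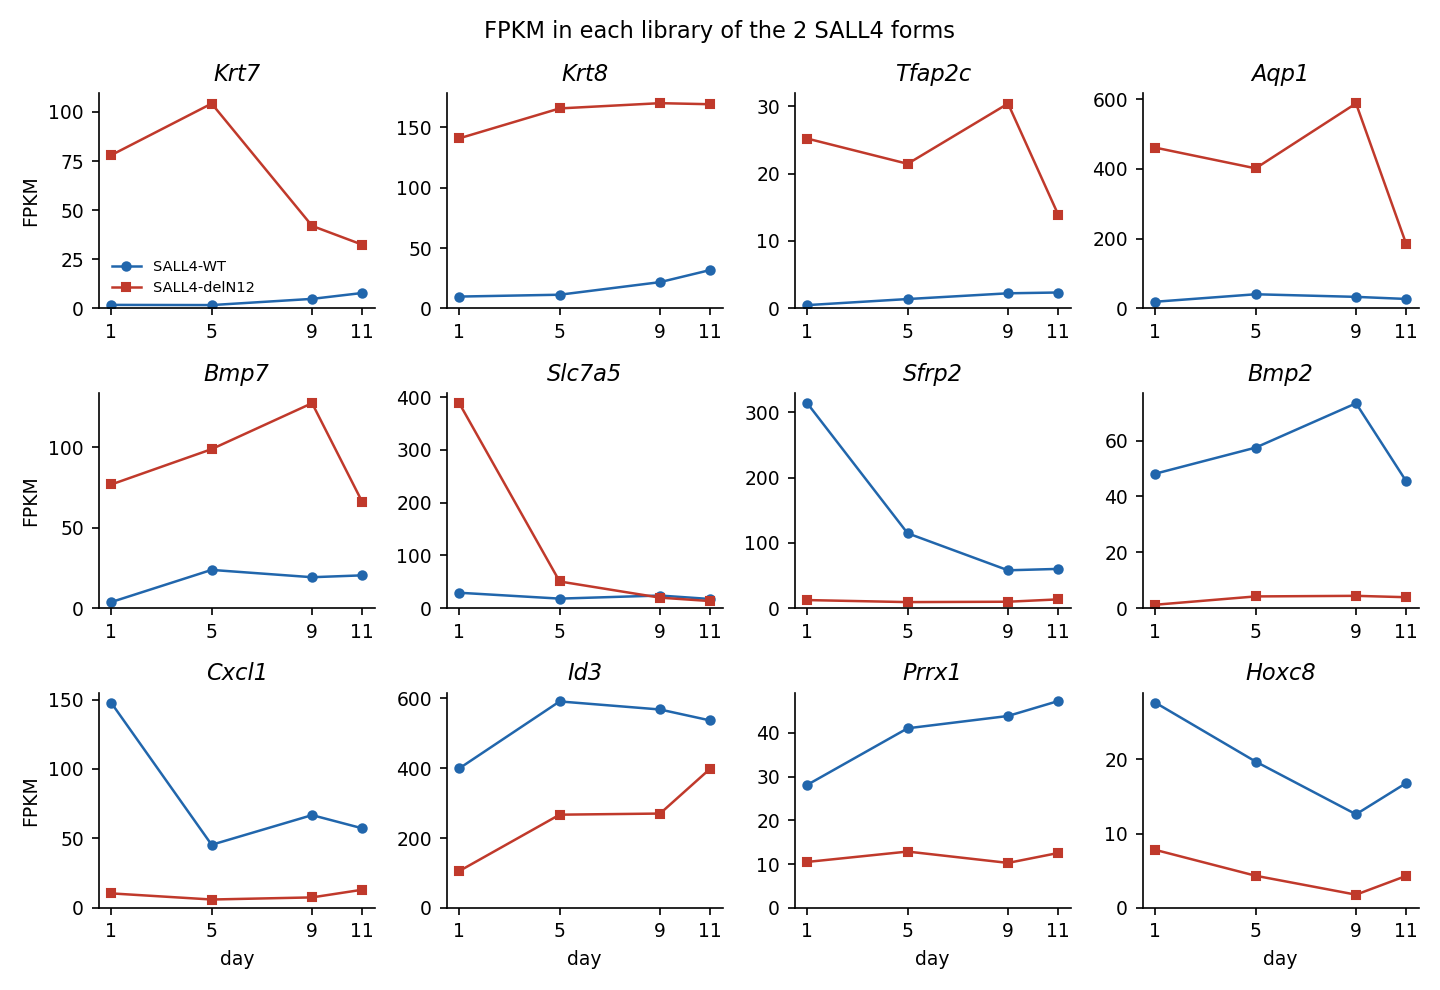
FPKM (vertical axis, from 0) of 12 genes at days 1, 5, 9 and 11 (horizontal axis) in the single SALL4-WT library (blue circles) and SALL4-delN12 library (red squares) of each day. *Krt7*, *Krt8*, *Tfap2c*, *Aqp1* and *Bmp7* are above the SALL4-WT values on all days, *Slc7a5* falls from 389 to 13.4 FPKM, and *Sfrp2*, *Bmp2*, *Cxcl1*, *Id3*, *Prrx1* and *Hoxc8* are below them.

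Open chromatin at day 1 was read from the ATAC-seq peaks of the same forms, with 83821 peaks for SALL4-WT and 94828 for SALL4-delN12, 1 list each. Of the genes compared, 8054 had a start site in the annotation of GRCm38.p6. A peak within 2 kb of a start in both lists was held by 94.6% of the genes past neither limit, 75.8% of the 314 higher genes and 70.7% of the 351 lower genes. Among the lower genes, 39 (11.1%) had a peak with SALL4-WT only and 11 (3.13%) with SALL4-delN12 only. Among the higher genes, 14 (4.46%) had it with SALL4-WT only and 19 (6.05%) with SALL4-delN12 only, while the shares in the remaining 7389 genes were 1.22% and 0.91%. With peaks of a score of at least 100, the shares with SALL4-WT only and SALL4-delN12 only were 3.18% and 11.8% in the higher, 13.4% and 3.70% in the lower and 2.33% and 2.60% in the remaining genes. Most genes that differed in RNA had a peak in both lists. No test stands behind these shares.

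**Figure D5:**
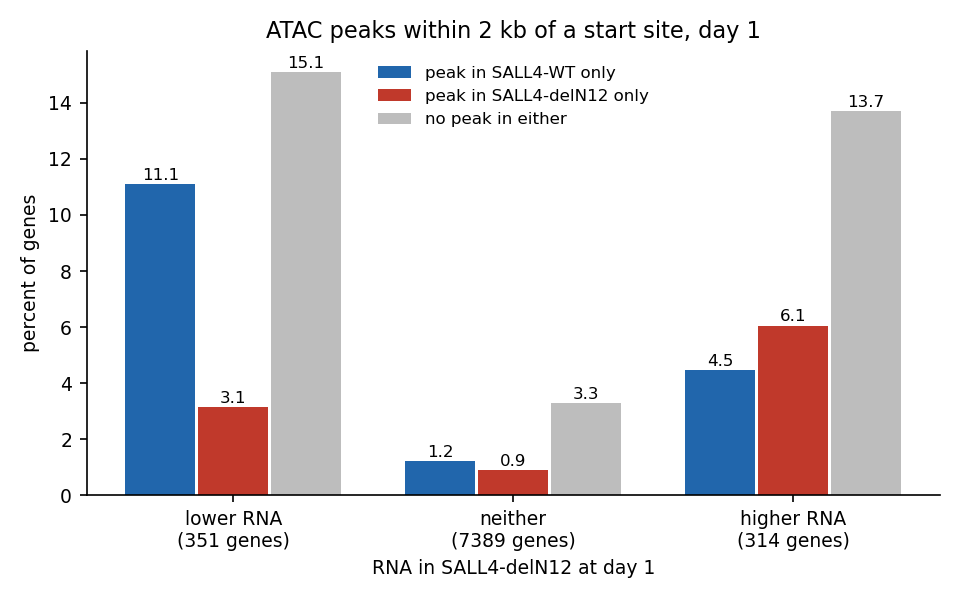
Percent of genes (vertical axis, from 0) with an ATAC peak within 2 kb of a start site in SALL4-WT only (blue), in SALL4-delN12 only (red) or in neither list (gray) at day 1, for the 351 lower, 7389 remaining and 314 higher genes (horizontal axis). The blue bar is tallest for the lower genes, at 11.1%, and the red bar for the higher genes, at 6.05%.

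Single genes show the range. *Krt18* had a peak over its start, from 157 bases before to 100 bases after it, with SALL4-delN12 (score 61.9) and none within 2 kb with SALL4-WT. *Tfap2c* had a peak from 206 bases before to 1 base after an annotated start inside the gene (position 172549593) with SALL4-delN12 (score 139) and not with SALL4-WT, beside a peak downstream of it that both had. *Thrsp*, *Krt7*, *Aqp1* and *Crispld2* also had peaks with SALL4-delN12 only. The ATAC list of MEFs holds peaks across these starts of *Tfap2c*, *Aqp1* and *Crispld2* too, and none across that of *Krt18*. The *Krt7* peak lies from 1675 to 1805 bases after the start, within a MEF peak from 1614 to 1871. *Padi2*, whose RNA was higher, had a peak with SALL4-WT only. *Icam1* had peaks from 320 to 133 bases before its start and across it with SALL4-WT (scores 92.3 and 55.6), while SALL4-delN12 had only a peak downstream of the start. *Cxcl2* had a peak from 207 to 24 bases before its start with SALL4-WT only (score 68.0). Of the 27 inflammatory genes measured, 18 had a peak in both lists, 1 (*Cxcl2*) with SALL4-WT only and 2 with SALL4-delN12 only, *Il1a* and *Mmp13*, whose RNA was lower (−1.81 and −1.21). *Cxcl1* had a peak over its start in both, with a score of 468 and 304. *Hoxc8* (SALL4-WT only) followed its RNA, *Hoxa9* and *Hoxb5* (SALL4-delN12 only) went against it, and of the 21 HOX genes 5 had a peak with SALL4-WT only and 5 with SALL4-delN12 only. All 22 ATF4 list genes and all 9 BMP targets had a peak in both. For all these counts, 94.6% of the genes past neither limit had a peak in both, 1.22% with SALL4-WT only and 0.91% with SALL4-delN12 only. Among the 351 lower genes these shares were 70.7%, 11.1% and 3.13%.

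Cut&Tag of day 6 gives SALL4 and H3K27ac peaks in cells of the same forms, 5 days after the RNA. A SALL4 peak within 2 kb of a start in both lists was held by 40.1% of the higher, 41.9% of the lower and 65.5% of the remaining genes, and a peak with SALL4-WT only by 22.0%, 24.8% and 21.5%. A peak with SALL4-delN12 only was held by 9.24%, 4.84% and 2.03%. No peak in either list was found at 28.7%, 28.5% and 10.9%. The shares without a peak were also higher in both classes for H3K27ac (19.7%, 20.8% and 5.18%) and for ATAC (13.7%, 15.1% and 3.29%). *Bmp7*, *Krt8*, *Krt19*, *Col23a1* and *Fgf21* were among the higher genes with a SALL4 peak in SALL4-WT only. The lower genes *Spon2*, *Rnd1*, *Neurl3* and *Ccl2* had the same state, and the higher genes *Crispld2*, *Cldn3* and *Ccnd1* had the peak in SALL4-delN12 only. H3K27ac peaks in SALL4-delN12 only were held by 23.6% of the higher, 17.1% of the lower and 5.44% of the remaining genes. Those in SALL4-WT only were held by 6.05%, 3.70% and 1.65%. However, the SALL4-delN12 list holds 45599 H3K27ac peaks against 19841 in SALL4-WT. This imbalance in the number called cannot be told apart from a difference at these genes. Of the higher genes, *Krt18*, *Krt19*, *Tfap2c*, *Aqp1* and *Padi2* had H3K27ac in SALL4-delN12 only. The lower genes *Sfrp2*, *Rnd1*, *Neurl3*, *Nxph3* and *Icam1* had the same state. The higher genes *Krt7* and *Tnnt2* had no H3K27ac peak in either list, and *Krt8* and *Bmp7* had it in both.

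Promoter sequence was searched from 250 bases before to 50 bases after each start for short motifs on both strands in the 6454 genes of the comparison that the RefSeq table of GRCm38.p6 holds. The NF-kB motif GGANTTTCC was in 5.93% of 253 lower, 0.87% of 229 higher and 1.14% of 5972 remaining genes, and in 1.23% of all 27025 promoters. It was in 7 of the 16 lower inflammatory genes with a promoter in the table. The AP-1 motif TGANTCA was in 9.49%, 5.68% and 4.22%, and in 7.93% of all promoters. The TATA box TATAAA was in 17.8%, 8.73% and 6.48%, and in 14.2% of all. The motif TGATGNAA of ATF4 and CEBP dimers was in 3.95%, 6.11% and 1.79%, and in 7 of 21 ATF4 list genes, against 4.06% of all. The ETS motif CCGGAAG was rarer in both classes, with 4.35% of lower, 7.42% of higher and 22.1% of remaining genes, and 9.12% of all. The AT-rich core AATATT that SALL4 binds was in 1.58%, 2.62% and 3.03%, and in 7.14% of all. A match is a string of letters and not a shown site.

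The neighboring chemokine genes *Cxcl1*, *Cxcl2* and *Cxcl3* (27.6 and 7.65 FPKM, −1.72) carried the motif as GGAATTTCC and *Icam1* in the reverse reading. The 250 bases before their starts are given 5′ to 3′ from the RefSeq promoter table, with the NF-kB motif in capitals. In *Cxcl2* and *Icam1* it lies inside the ATAC peaks upstream of the start that were called with SALL4-WT only.
Cxcl1, chr5:90890995-90891244, plus strand: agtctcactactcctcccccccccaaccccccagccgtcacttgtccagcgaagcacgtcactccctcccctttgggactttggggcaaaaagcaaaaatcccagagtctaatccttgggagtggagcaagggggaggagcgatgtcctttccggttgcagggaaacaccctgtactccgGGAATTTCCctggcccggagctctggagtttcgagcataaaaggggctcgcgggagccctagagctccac
Cxcl2, chr5:90903649-90903898, plus strand: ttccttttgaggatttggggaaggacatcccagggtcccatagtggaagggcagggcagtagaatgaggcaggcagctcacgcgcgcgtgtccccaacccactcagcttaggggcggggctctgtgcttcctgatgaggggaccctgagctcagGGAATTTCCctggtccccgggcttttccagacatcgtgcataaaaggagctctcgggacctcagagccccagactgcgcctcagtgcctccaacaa
Cxcl3, chr5:90785851-90786100, plus strand: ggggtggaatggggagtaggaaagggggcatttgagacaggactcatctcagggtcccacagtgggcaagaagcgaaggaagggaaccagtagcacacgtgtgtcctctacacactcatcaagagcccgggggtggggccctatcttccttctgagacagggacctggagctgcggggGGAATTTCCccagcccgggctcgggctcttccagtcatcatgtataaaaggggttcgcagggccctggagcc
Icam1, chr9:21015690-21015939, plus strand: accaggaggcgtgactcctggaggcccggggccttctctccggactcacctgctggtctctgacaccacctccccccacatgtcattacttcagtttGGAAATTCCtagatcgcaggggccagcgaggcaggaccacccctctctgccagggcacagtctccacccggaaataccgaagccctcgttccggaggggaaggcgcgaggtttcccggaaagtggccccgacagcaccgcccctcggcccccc

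The same stretch of 2 keratin genes higher in SALL4-delN12 is given because *Tfap2c* was higher beside them. Capitals mark GCCNNNGGC, a motif of AP-2 factors, which was common everywhere (25.8% of higher, 24.9% of lower and 26% of remaining genes, 16.5% of all promoters). Of the 7 keratins measured that have a promoter in the table, 4 held it (*Krt7*, *Krt18*, *Krt42* and *Krt90*) and *Krt8*, *Krt76* and *Krt79* did not. In *Krt18* it lies within the peak over the start that was called with SALL4-delN12 only.
Krt18, chr15:102027966-102028215, plus strand: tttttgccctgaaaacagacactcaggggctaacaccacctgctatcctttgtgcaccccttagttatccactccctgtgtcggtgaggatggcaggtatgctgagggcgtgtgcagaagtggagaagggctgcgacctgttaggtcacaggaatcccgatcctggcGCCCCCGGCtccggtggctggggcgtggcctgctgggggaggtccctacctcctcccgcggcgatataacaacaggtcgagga
Krt7, chr15:101412153-101412402, plus strand: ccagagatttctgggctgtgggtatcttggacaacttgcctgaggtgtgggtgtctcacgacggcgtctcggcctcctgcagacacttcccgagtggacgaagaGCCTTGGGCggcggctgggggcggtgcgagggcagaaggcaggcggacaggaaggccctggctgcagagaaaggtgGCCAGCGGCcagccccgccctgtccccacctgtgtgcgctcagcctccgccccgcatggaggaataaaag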

How the data were processed

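Bulk RNA-seq of SALL4-WT and SALL4-delN12 cells was compared at day 1, with 1 library a side. The authors trimmed reads with Trim Galore 0.6.4, aligned them to mm10 with HISAT2 2.2.1 and deposited FPKM values from StringTie 2.2.1. The depth is unknown, since FPKM keeps no read number. The peak lists, per the submitters' notes made with Bowtie2 2.4.5, SAMtools 1.16.1 and MACS 1.4.2, were deposited with a score for each peak. The 8 other columns of the FPKM table were not used.

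Differences are log2(FPKM + 1), SALL4-delN12 minus SALL4-WT, over genes with at least 5 FPKM in either library, without interferon patterns (266 symbols) and short RNAs (1461). This pseudocount understates the change of low genes. The study's own analysis needs reads, so a limit of 1 took its place. Named genes are *Sall4*, the 15 protein-coding genes with the largest difference each way, members past 1 of the lists described and 12 PrE genes; the longer lists are shown by examples, and named genes not past 1 were added as context after their values were seen. The members and lists were chosen with earlier results of these data known. Counting was tested on simulated data. Start sites and promoters come from RefSeq (GRCm38.p6). Python 3.11.15, pandas 2.3.3 and NumPy 2.4.6 were used. Alternatives were other pseudocounts, filters and scalings, protein-coding genes only, interferon genes kept, and other peak scores and windows. Gene families, the NF-kB, AP-2, TATA and ETS motifs and the 50 kb peak counts were added after seeing the data.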

Additional observations from a re-analysis of the deposited data

Results flagged for a closer look

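The differences at day 1 and day 11 pointed in opposite directions, each past 1 at day 1 and past 2 at day 11, for 3 named genes. *Col6a1* was at 122 and 245 FPKM in SALL4-WT and SALL4-delN12 at day 1 (1.01) and at 237 and 36.6 FPKM at day 11 (−2.66). *Col6a2*, its neighbor on chromosome 10, was at 65.7 and 137 FPKM at day 1 (1.05) and at 133 and 19.3 FPKM at day 11 (−2.72). *Adgre1*, a macrophage marker, was at 16.9 and 7.78 FPKM at day 1 (−1.03) and at 1.84 and 10.6 FPKM at day 11 (2.03). With 1 library for each form and day, the difference between the days was not tested.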

How the results depend on the processing

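The counts of higher and lower genes were 320 and 358 and depended on how low values were treated. They were 201 and 191 with a pseudocount of 5 and 183 and 195 with a mean of at least 10 FPKM. Without a filter, or with a floor of 1 FPKM, 548 genes were lower, and 490 were higher after rescaling to TPM, under which more genes meet the floor. The other alternatives moved neither count by over 1.5 times, and scaling by the median ratio gave 329 and 349. Of 140 list medians recomputed, 27 moved by over 1.5 times with the same sign, 16 of them with a main size under 0.25, and 2 changed sign. With a mean of at least 10 FPKM the LIF and STAT3 median went from −0.37 to 0.02 and that of the fibroblast markers from 0.23 to −0.01. With a pseudocount of 5 the inflammatory median was −1.07, the HOX median −0.57, the imprinted median 0.34 and the macrophage median 0.49. Without a filter the BMP target median was −0.78, the epithelial median 1.59, the immediate early median −0.26 and the mesenchymal factor median −0.31. The shares with the same sign at later days stayed between 74.3% and 89.7% with another pseudocount or scaling. With peak scores of at least 100, the share of higher genes with a peak in SALL4-delN12 only was 11.8%, and in the remaining genes the shares were 2.33% (SALL4-WT only) and 2.60% (SALL4-delN12 only). Within 500 bases of a start these were 1.5% and 1.3%. No paired analysis was possible because each form has 1 library at day 1. The differences carry no replicate error, and no count of reads stands behind an FPKM value.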

Other observations

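Peaks of day 1 that were called in a single form, 45000 in SALL4-delN12 only and 31309 in SALL4-WT only, were counted within 50 kb of each start, an analysis added after the promoter peaks had been seen. Higher genes had more SALL4-delN12-only than SALL4-WT-only peaks in 48.4% of cases and fewer in 36.9%, the lower genes in 42.5% and 40.2%, and the remaining genes in 44.1% and 38.7%. The means were 3.85 and 3.38 peaks near higher genes, 3.27 and 3.21 near lower genes and 2.86 and 2.76 near the rest.

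*Rps28*, a ribosomal protein gene, was at 861 FPKM with SALL4-WT and 147 FPKM with SALL4-delN12 at day 1 (−2.54) and differed by −5.69 at day 5, while no other of the 81 ribosomal protein genes measured was past 1 at day 1. Reads of such a short gene with many processed copies can be assigned to its copies, so its value is uncertain.

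The WNT ligand genes *Wnt6*, *Wnt10a* and *Wnt7b* were further apart at day 5 than at day 1. *Wnt6* was at 2.29 FPKM with SALL4-WT and 83.3 FPKM with SALL4-delN12 at day 5 (4.68), its neighbor *Wnt10a* at 2.62 and 50.1 FPKM (3.82) and *Wnt7b* at 0.20 and 16.1 FPKM (3.84).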
